A study of Mus musculus with 61 samples.

Results

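Adipose tissue of the inbred mouse strains 129 and NOD was compared by RNA-seq across all genes that passed a filter on low counts. The members are the 7 libraries labelled 129 and the 8 labelled NOD, 15 of the 61 libraries in the series, which covers the 8 inbred strains from which Diversity Outbred mice descend. All mice had been fed a high-fat, high-sugar diet given as 45 percent fat. The labels name the tissue only as adipose and give no depot, sex, age or batch. Both groups are whole inbred strains with no transgene, deletion or treatment given in the labels other than the shared diet. Strain cannot be told apart from depot, age or batch where these differed between the groups. The comparison asks which transcripts differ between the adipose tissue of 129 and NOD mice fed alike.

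White adipose tissue stores triglyceride in adipocytes and also holds macrophages, lymphocytes, vessels, nerves and adipocyte progenitors. Its mitochondria burn little fat unless brown-like adipocytes appear, which carry the uncoupling protein UCP1. NOD is the non-obese diabetic strain, in which T cells destroy the insulin-producing cells of the pancreas, and its major histocompatibility complex (MHC, called H2 in mice) carries its own haplotype. 129 strains have been a main source of embryonic stem cells and carry another H2 haplotype. Genes of the H2 complex, of the natural killer receptor cluster and of other immune families differ in sequence and copy number among inbred strains, and a reference genome made from B6 counts such genes unequally.

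Library totals, in units of 1e6 counts, were 34.7 to 43.5 in 129 and 33.7 to 48.4 in NOD. Levels are CPM, counts per 1e6 counts of the library after TMM scaling, a log2 fold change is 129 minus NOD with its standard error, and called genes are those whose p in edgeR's quasi-likelihood test, adjusted by Benjamini-Hochberg, was under 0.05. The adipocyte hormone gene Adipoq stood at 1315 to 2921 CPM in 129 and 1012 to 3002 CPM in NOD. The libraries fell into 2 classes that ran through both strains. Those numbered 1 to 4 had 420 to 627 CPM of Xist, the RNA of X inactivation, and at most 1.25 CPM of the Y-linked gene Ddx3y. Those numbered 5 to 9 had at most 6.87 CPM of Xist and at least 87.7 CPM of Ddx3y. Crisp1, a secreted protein gene of the male genital tract, was over 100 CPM in 4 of the libraries numbered 5 to 9, namely 129 replicates 6, 7 and 9 and NOD replicate 6, and at most 0.288 CPM in the other 11. All 3 libraries of 129 in that class were thus rich in Crisp1, against 1 of 4 of NOD. Values within each number class, from a fit to the 15 libraries, are given below where they bear on a result.

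Of 18603 genes tested, 1948 were called (10.5%). Of these 933 were higher in 129 (5.02% of genes tested) and 1015 higher in NOD (5.46%). The median log2 fold change was -0.01 over all genes tested and the median size was 0.95 over called genes. A difference of at least 2-fold stood behind 940 calls (5.05%), 445 higher in 129 (2.39%) and 495 higher in NOD (2.66%). In 902 called genes (4.85%) the 7 libraries of 129 and the 8 of NOD did not overlap. Libraries numbered 1 to 4 alone gave 3762 calls (20.2%) and those numbered 5 to 9 gave 2150 (11.6%). The strain difference itself differed between the 2 classes in 548 genes (2.95%).

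**Figure D1:**
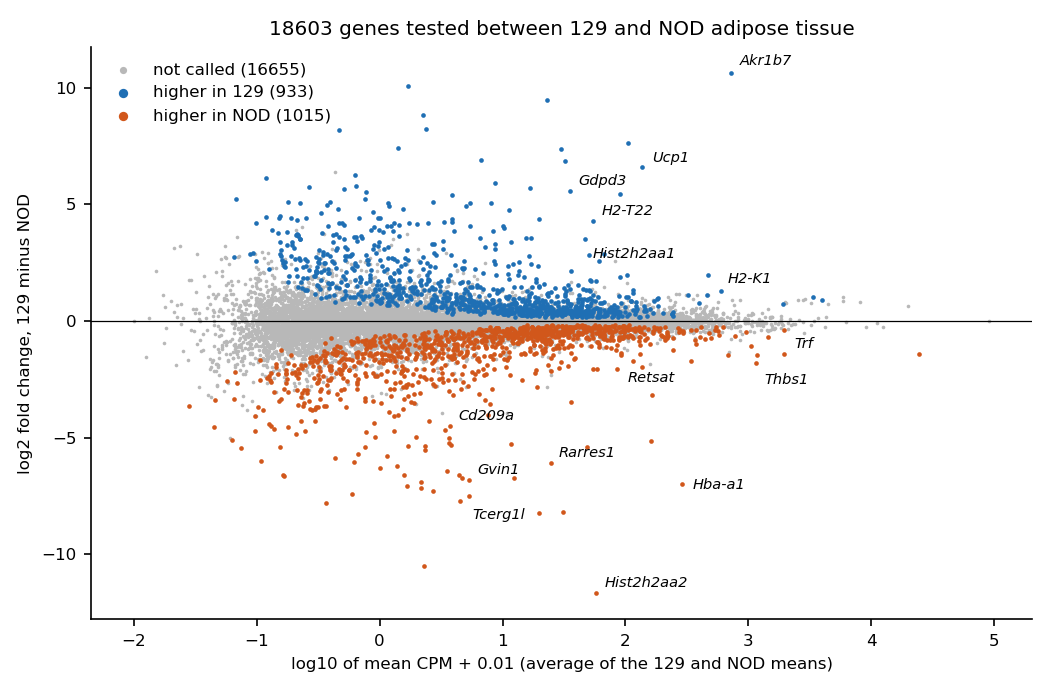
Each point is 1 of 18603 genes, with the log10 of its mean CPM on the horizontal axis and its log2 fold change, 129 minus NOD, on the vertical axis. Blue points were called higher in 129 (933) and orange points higher in NOD (1015). Hist2h2aa2 and Akr1b7 lie at the extremes, and both are described in the text.

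The largest differences toward NOD included Tcerg1l, Rarres1, Cd209a and Tfr2, all higher in every NOD library than in any library of 129. Tcerg1l, related to a transcription elongation regulator and located on chromosome 7, was at 0.03, 0.17 and 0.24 CPM (lowest, median and highest) in 129 and at 15.1, 40.2 and 60.8 CPM in NOD. Every NOD library was thus far above every 129 library (log2 fold change -8.24 ± 0.72, adjusted p = 1.11e-13 in edgeR), and the other 6 strains had means of 0.0112 to 0.447 CPM. Rarres1, a gene induced by retinoic acid, was at 0.229, 0.695 and 1.35 CPM in 129 and 24.3, 37.2 and 92.7 CPM in NOD (-6.08 ± 0.52, adjusted p = 6.71e-14). The groups did not overlap, and WSB, with a mean of 96.4 CPM, was the other strain with the highest level. Cd209a, a C-type lectin of dendritic cells and macrophages, was at 0.0883, 0.311 and 0.543 CPM in 129 and 5.14, 7.34 and 9.33 CPM in NOD (-4.52 ± 0.37, adjusted p = 1.31e-14), again with no overlap. Tfr2, the second transferrin receptor, was at 0.442, 1.33 and 2.23 CPM in 129 and 4.73, 15.6 and 21.3 CPM in NOD (-3.58 ± 0.74, adjusted p = 0.000384).

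Further genes called higher in NOD included members of multigene families. Gvin1, a very large interferon-inducible GTPase, shares reads with similar genes. It was at 0, 0 and 0.26 CPM in 129 and 6.05, 9.79 and 18.6 CPM in NOD (-6.83 ± 0.55, adjusted p = 8.3e-15), without overlap. Trim30d, a tripartite motif gene (-5.22 ± 0.60), and Ceacam2, a cell adhesion gene (-5.31 ± 0.32), share reads too and stayed under 0.35 CPM in all 129 libraries. Gpr50, a receptor related to the melatonin receptors, spread widely in NOD, from 1.12 to 26.2 CPM with a median of 3.18 CPM, over at most 0.177 CPM in 129. Its log2 fold change of -6.45 ± 1.07 came to -5.74 without NOD replicate 6, and the call held.

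Toward 129, the largest differences included the brown adipocyte gene Ucp1, lipid enzymes and genes of the H2 complex. Gdpd3, a lysophospholipase D gene that shares reads, was at 52.4, 66.1 and 85.4 CPM in 129 and 1.11, 1.34 and 1.92 CPM in NOD (5.56 ± 0.20, adjusted p = 5.09e-30). Means in the other 6 strains were 0.573 to 2.12 CPM, all near NOD. Elovl7, a fatty acid elongase, was likewise at 13.8, 16.1 and 18 CPM in 129, at 0.756, 1.05 and 3.77 CPM in NOD, and at most at 4.94 CPM in the means of the other strains (3.28 ± 0.39, adjusted p = 2.67e-09).

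Gbp2b, a guanylate-binding GTPase induced by interferon, was at 31.2, 37.4 and 42.5 CPM in 129 and 0.945, 1.77 and 3.45 CPM in NOD (4.38 ± 0.27, adjusted p = 2.24e-19). It shares reads, and AJ, at 54.4 CPM, was the only other strain nearer to 129 than to NOD. Cathepsin E (Ctse, 4.26 ± 0.72), the eosinophil-associated ribonuclease Ear2 (3.53 ± 0.56), the GABA receptor subunit Gabra3 (3.37 ± 0.38), the skin adhesion gene Cdsn (3.15 ± 0.46) and the germ cell genes Rbm46 (2.83 ± 0.31) and Spaca1 (2.59 ± 0.57) were called with no overlap of libraries. Of the 28 genes taken for the size of their difference, 14 in each direction, 14 share reads with similar genes (9 higher in NOD and 5 higher in 129). Over all genes tested, 502 of 4105 genes that share reads were called (12.2%), against 1446 of 14498 others (9.97%).

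**Figure D2:**
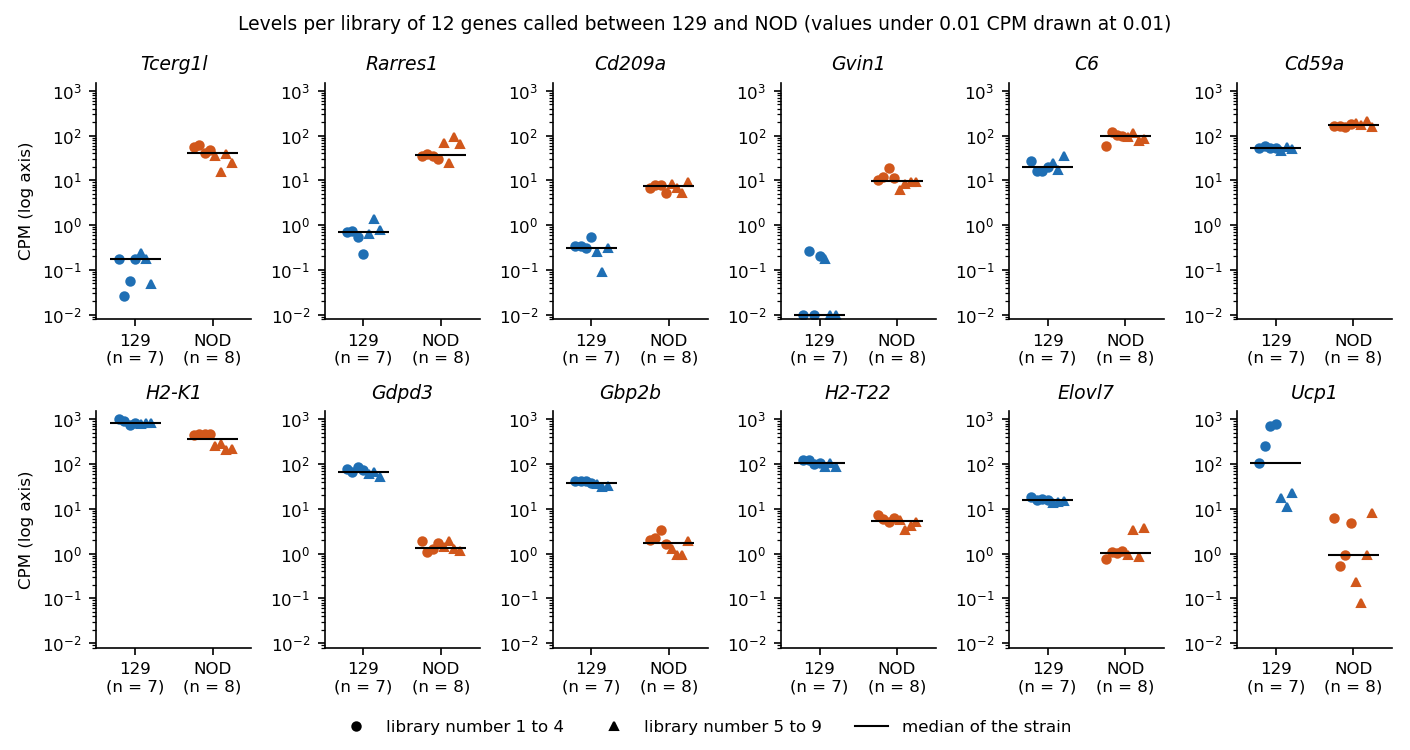
CPM on a log axis in each of the 7 libraries of 129 (blue) and 8 of NOD (orange) for 12 genes, with circles for libraries numbered 1 to 4, triangles for those numbered 5 to 9 and a line at the strain median. In all 12 the strains do not overlap, and Ucp1 in 129 spans 11.3 to 771 CPM with the triangles at the bottom.

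Some of the widest differences concerned 1 of 2 near-identical genes, whose coding sequences are shown because they limit what the counts can separate. The α-globin genes Hba-a1 (chromosome 11, coding bases from 32283707 to 32284391, plus strand, GRCm38) and Hba-a2 (chromosome 11, 32296524 to 32297208, plus strand) have coding sequences of 429 bases that differ at 1 base, number 381 counted from the start codon. Their last 59 coding bases, from GENCODE M21 with the differing base in capitals, read
Hba-a1: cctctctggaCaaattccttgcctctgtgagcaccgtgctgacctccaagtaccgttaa
Hba-a2: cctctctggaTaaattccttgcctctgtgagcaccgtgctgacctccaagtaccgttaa
The histone H2A genes Hist2h2aa1 (chromosome 3, 96245581 to 96245973, plus strand) and Hist2h2aa2 (chromosome 3, 96239858 to 96240250, minus strand) have coding sequences of 393 bases that do not differ at any base. Both begin with
Hist2h2aa1: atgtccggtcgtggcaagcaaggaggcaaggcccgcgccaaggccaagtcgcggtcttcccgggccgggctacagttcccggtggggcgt
Hist2h2aa2: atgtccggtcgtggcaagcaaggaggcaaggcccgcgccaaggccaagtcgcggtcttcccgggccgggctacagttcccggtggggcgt

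Reads of both pairs were divided very differently in the 2 strains. Hba-a1 was at 1.43, 2.56 and 11.6 CPM in 129 and 428, 612 and 662 CPM in NOD (-7.01 ± 0.65, adjusted p = 1.14e-12), whereas Hba-a2 was at 482 to 2521 CPM in 129 and 547 to 953 CPM in NOD and was not called (0.17 ± 0.29). Hba-a1 took 0.267 to 2.09% of the pair's sum in 129 and 40.1 to 45.1% in NOD. That sum was 483, 567 and 2528 CPM in 129 and 975, 1394 and 1612 CPM in NOD, so the pair's sums overlapped through 129 replicate 3 alone, where both β-globin genes were also high (2221 CPM of Hbb-bs). Hbb-bs was not called (-0.23 ± 0.30), and Hbb-bt was (-1.41 ± 0.34, adjusted p = 0.00281).

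Hist2h2aa2 was at 0, 0 and 0.192 CPM in 129 and 106, 113 and 140 CPM in NOD (adjusted p = 7.34e-15), and 5 of the 7 libraries of 129 had no count. Hist2h2aa1 went the other way, with 70.5, 88.1 and 95.8 CPM in 129 and 5.5, 7.29 and 10.6 CPM in NOD (3.50 ± 0.19, adjusted p = 2.75e-22). The sum of the pair was 85.8 ± 8.49 CPM in 129 (SD, n = 7) and 122.9 ± 10.4 CPM in NOD (SD, n = 8), a much smaller gap than that of either gene. NZO was the other strain with a high Hist2h2aa2 mean, at 51 CPM, and the remaining 5 had at most 0.457 CPM. Tpm3-rs7, a copy related to tropomyosin 3 that shares reads, was at 0, 0.143 and 0.869 CPM in 129 and 47.1, 62.4 and 75.7 CPM in NOD (-8.19 ± 0.48, adjusted p = 1.32e-20, and -9.09 without 129 replicate 1). Atp5g2, for a subunit of the mitochondrial ATP synthase (-3.49 ± 0.19), Ncoa4, the receptor that sends ferritin to lysosomes (-3.17 ± 0.18), and Psmc3ip, a recombination gene (-3.39 ± 0.25), share reads as well and did not overlap between the strains. How reads were divided among copies is not given in the sources used here, and its part in these differences was not tested.

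**Figure D3:**
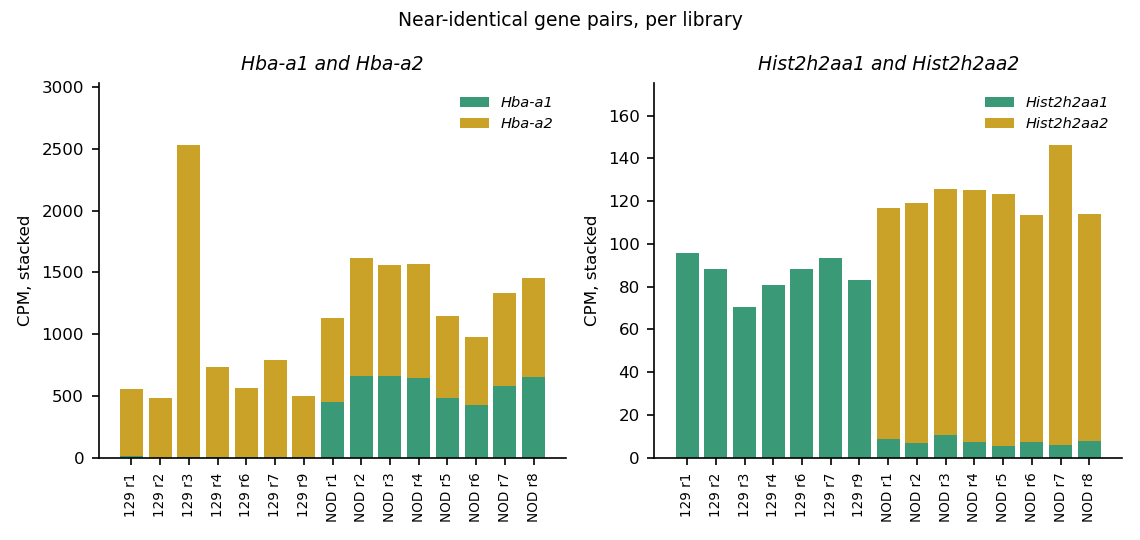
Stacked CPM of Hba-a1 and Hba-a2 (left) and of Hist2h2aa1 and Hist2h2aa2 (right) in the 15 libraries, labelled by strain and replicate. In 129 nearly the whole bar belongs to Hba-a2 and to Hist2h2aa1, while NOD shows 40.1 to 45.1% Hba-a1 and mostly Hist2h2aa2.

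Called genes with a mean under 0.1 CPM in one strain and at least 2 CPM in the other numbered 18 near 0 in 129, of which 8 share reads, and 7 near 0 in NOD, of which 5 share reads. Nlrp1a, an inflammasome sensor, had no count in 6 of 7 libraries of 129, 0.203 CPM in replicate 1, and 2.8, 4.12 and 6.46 CPM in NOD (adjusted p = 7.76e-14 in edgeR). Trim5, an antiviral restriction gene that shares reads, had 0, 0 and 0.168 CPM in 129 and 3.99, 4.21 and 4.69 CPM in NOD (adjusted p = 1.06e-17), and AJ was the 1 other strain nearer to 129. The zinc finger gene Zfp429 had at most 0.0579 CPM in 129 and at least 2.36 CPM in NOD, with WSB alone of the others near 0. No fold is given for these genes, since 6 to 9 counts in all stood behind their levels in 129.

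Near 0 in NOD, Mettl7a3, a methyltransferase-like gene that shares reads, had 2.78, 4.42 and 6.81 CPM in 129 and 2 counts in all 8 NOD libraries. The other strain means were at most 0.261 CPM. Rims1, a synaptic scaffold gene, and Elf5, an epithelial transcription factor, were called higher in 129 through its libraries numbered 5 to 9. These had 5.37 to 13.8 CPM of Rims1 and 1.66 to 7.05 CPM of Elf5 and were rich in Crisp1. NOD replicate 6, also rich in Crisp1, had only 0.0516 CPM of Rims1 and 0.258 CPM of Elf5. In libraries numbered 1 to 4 neither was called (adjusted p = 0.0677 and 0.136). The urinary protein gene Mup17 rested on 129 replicate 1, at 18.6 CPM, and lost its call without it (adjusted p = 0.58). Pate2 and Wfdc6a, secreted protein genes, were called higher in NOD through replicate 6 alone, at 69.5 and 25.9 CPM against at most 0.169 and 0.378 CPM in the other NOD libraries. Without it the log2 fold changes were 0.43 and -0.47 and neither was called.

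Abundant genes, whose mean over the 15 libraries reached 200 CPM, included Thbs1, Retsat and Trf higher in NOD and Hmgcs1 and H2-K1 higher in 129. Thbs1, the matrix glycoprotein thrombospondin 1, was at 251, 488 and 835 CPM in 129 and 718, 1814 and 2569 CPM in NOD (-1.80 ± 0.43, adjusted p = 0.00226). Only NOD replicate 6, also low in Adipoq, lay within the range of 129, and all 6 other strain means (291 to 513 CPM) lay nearer to 129. Retsat, a retinol saturase of fat cells that shares reads, was at 96, 174 and 216 CPM in 129 and 353, 535 and 688 CPM in NOD (-1.74 ± 0.24, adjusted p = 9.24e-08). Trf, transferrin, was at 642, 962 and 1711 CPM in 129 and 1716, 2771 and 3962 CPM in NOD (-1.41 ± 0.20, adjusted p = 1.75e-07). Retsat and Trf did not overlap between the strains, and Trf shares reads.

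Cyp2e1, a cytochrome P450 of fatty acid and solvent oxidation, was called lower in 129 over all libraries (-1.48 ± 0.44, adjusted p = 0.0182), and the size depended on the number class. It was at 656 to 1193 CPM in 129 and 1150 to 1764 CPM in NOD in libraries numbered 1 to 4 (-0.67, adjusted p = 0.222), and at 168 to 388 CPM against 835 to 2908 CPM in those numbered 5 to 9 (-3.06, adjusted p = 0.000389). The 2 differences differed (adjusted p = 0.034 for the interaction), and the call was lost without 129 replicate 6 (-1.32). The call was also lost without the Crisp1-rich libraries (-1.04, adjusted p = 0.217 in edgeR), which include every 129 library numbered 5 to 9. The ribosomal RNA repeat Rn18s-rs5, a sign of ribosomal RNA left in poly(A) libraries, was at 6090, 14920 and 21490 CPM in 129 and 11180, 36090 and 60740 CPM in NOD (-1.43 ± 0.42, adjusted p = 0.0174). Its part in the other differences was not tested.

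Higher in 129 among abundant genes were Hmgcs1, Ucp2 and H2-K1, without a class reversal. Hmgcs1, the cholesterol synthesis enzyme HMG-CoA synthase, was at 518, 687 and 743 CPM in 129 and 210, 292 and 399 CPM in NOD with no overlap (1.12 ± 0.24, adjusted p = 0.000717). Ucp2, a mitochondrial carrier, was at 386, 429 and 735 CPM against 235, 280 and 447 CPM, with NOD replicate 6 within the range of 129 (0.77 ± 0.23, adjusted p = 0.0212). Its call was lost without 129 replicate 6 (0.71) or 129 replicate 9 (0.66). Akr1b7, an aldose reductase of the genital tract, and Myh11, smooth muscle myosin, owed their calls to the 3 Crisp1-rich libraries of 129. These had 1549 to 4313 CPM of Akr1b7 and 936 to 1932 CPM of Myh11. NOD replicate 6, also rich in Crisp1, had only 6.81 CPM of Akr1b7 and 165 CPM of Myh11. The Myh11 call (1.96 ± 0.59) was lost without 129 replicate 6 (1.53) or 129 replicate 9 (1.51). In libraries numbered 1 to 4 Akr1b7 was at most 0.194 CPM in both strains, and Myh11 was at 84 to 169 CPM in 129 and 110 to 275 CPM in NOD. The muscle genes Ckm (11 to 28 CPM) and Tnnc2 (6.82 to 14.7 CPM) were high in the same 3 libraries, and at most 0.871 CPM in the other 12. Both were called higher in 129, and the Ckm call (4.94 ± 1.56) was lost in 7 of the 15 fits that each left out 1 library, with values from 4.39 to 4.89.

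Most mitochondrial and fat-burning genes were higher in 129 than in NOD in libraries numbered 1 to 4, and their list medians were between -0.25 and -0.00 in those numbered 5 to 9. Over all libraries few members passed the test. Of 13 mitochondrially encoded genes 1 was called higher in 129 (median log2 fold change 0.80, against -0.01 over all genes), of 43 nuclear genes of the respiratory chain none (median 0.22), of 23 fatty acid oxidation genes 2 (0.46) and of 14 thermogenic genes 2 (0.99). Within numbers 1 to 4 the counts higher in 129 were 13 of 13, 35 of 43, 16 of 23 and 10 of 14, where 10.1% of all genes tested were called in that direction. Within numbers 5 to 9 they were 0 in each of these 4 lists, with 6.13% of all genes called higher in 129. The difference between the classes was itself called for 12 of 13, 21 of 43, 6 of 23 and 3 of 14 members, against 2.95% of all genes. All 3 libraries of 129 numbered 5 to 9 were rich in Crisp1. Here and in the results below, the number class in 129 thus cannot be told apart from Crisp1-rich tissue.

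The 13 mitochondrially encoded genes summed to 67760 to 98580 CPM in 129 and 36960 to 42960 CPM in NOD in libraries numbered 1 to 4, and to 38470 to 41610 CPM and 34990 to 48980 CPM in those numbered 5 to 9. The 4 libraries of 129 numbered 1 to 4 thus stood above the other 11. mt-Nd1, a subunit of complex I, was at 4727 to 7839 CPM in those 4 and at 2467 to 3505 CPM in all others. Its call over all libraries (0.88 ± 0.29, adjusted p = 0.0436) was lost when any 1 of the 4, or any 1 of the 8 NOD libraries but replicate 7, was left out, with values from 0.74 to 0.90. Ucp1, which dissipates the proton gradient as heat, was at 107 to 771 CPM in 129 and 0.526 to 6.21 CPM in NOD in numbers 1 to 4 (7.19, adjusted p = 0.000805). In numbers 5 to 9 it was at 11.3 to 23.2 CPM against 0.0774 to 8.13 CPM (2.84, adjusted p = 0.112). Over all libraries it was called (6.62 ± 1.65, adjusted p = 0.00369) with no overlap, and all 6 other strain means, from 45.9 to 515 CPM, lay nearer to 129.

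Single genes of fat oxidation followed the same order of libraries, except Acot11. Ppara, the transcription factor that drives fatty acid oxidation, was at 19 to 47.3 CPM in 129 numbers 1 to 4, 7.82 to 8.86 CPM in 129 numbers 5 to 9 and 4.52 to 8.1 CPM in NOD (1.90 ± 0.50, adjusted p = 0.00637, interaction adjusted p = 0.00694). Cpt1b, which passes fatty acids into mitochondria and shares reads, had log2 fold changes of 2.98 in numbers 1 to 4 and -0.03 in numbers 5 to 9 (interaction adjusted p = 0.037). Its overall call (2.14 ± 0.71, adjusted p = 0.0404) was lost without any of 129 replicates 2, 3 or 4, of NOD replicates 1, 2, 3, 5, 7 or 8, with values from 1.74 to 2.17. Plin5, the droplet protein that ties lipid to mitochondria, had 1.69 and 0.26 (interaction adjusted p = 0.0267; overall 1.17 ± 0.35, lost without 129 replicate 3 at 1.06 or 4 at 0.98). Cidea, a lipid droplet protein of brown fat, had 3.36 and 0.70. Its overall call (2.81 ± 0.88) was lost without 129 replicate 3 (2.63) or 4 (2.38) or NOD replicate 2 (2.69) or 6 (2.71). Acot11, an acyl-CoA thioesterase of brown fat, was called in both classes (4.29 and 2.33). It was at 9.36 to 80.8 CPM in 129 numbers 1 to 4 and at 10.8 to 19.5 CPM in 129 numbers 5 to 9.

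Of 20 genes of de novo lipogenesis, which builds fatty acids from glucose, 12 were called higher in 129 within numbers 1 to 4 (median 0.73, against 10.1% of all genes) and 3 within numbers 5 to 9 (median -0.09, against 6.13%), with the interaction called for 2. Fasn, fatty acid synthase, was at 4600 to 16900 CPM in 129 and 2262 to 3966 CPM in NOD in numbers 1 to 4 (1.78, adjusted p = 0.000715), and at 4811 to 5520 CPM and 4522 to 5064 CPM in numbers 5 to 9 (0.12, adjusted p = 0.868). Fads2, a fatty acid desaturase, was the 1 member called over all libraries (1.14 ± 0.39, adjusted p = 0.0471). It was at 46.8 to 108 CPM in the 3 Crisp1-rich libraries of 129 and 11.1 to 17 CPM in the other 4, and its call was lost in 10 of the 15 fits that each left out 1 library, with values from 0.75 to 1.19.

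**Figure D4:**
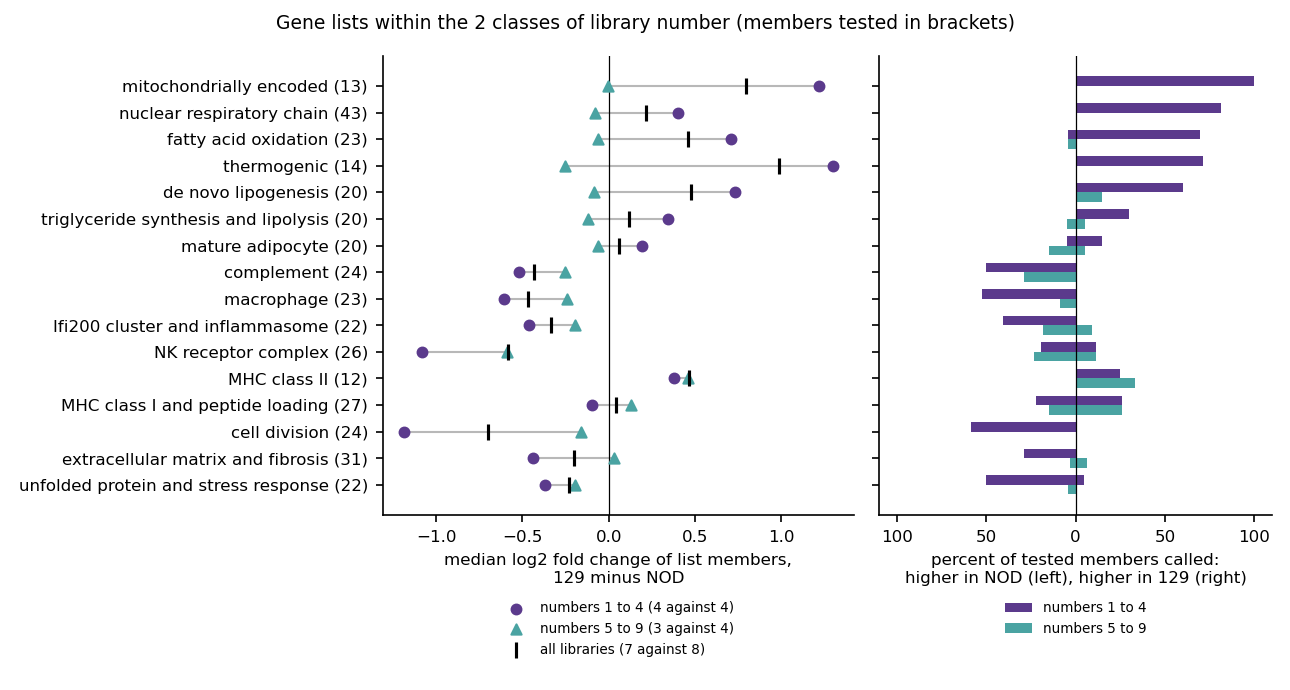
Left, the median log2 fold change (129 minus NOD) of the tested members of 16 gene lists in libraries numbered 1 to 4 (circles), numbered 5 to 9 (triangles) and all libraries (short vertical lines). Right, the percent of members called higher in NOD (left of 0) and in 129 (right of 0) in each class. Of the mitochondrially encoded genes 13 of 13 were called higher in 129 in numbers 1 to 4 and 0 in numbers 5 to 9.

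Mature adipocyte genes were called higher in 129 at about the rate of all genes. Of 20, 1 was called higher in 129 and 0 in NOD, against 5.02% and 5.46% of all genes tested. The called gene was Pparg, the nuclear receptor that drives fat cell formation (149, 162 and 212 CPM in 129 against 77.1, 113 and 148 CPM in NOD, 0.62 ± 0.16, adjusted p = 0.00506, no overlap). The list's median was 0.06. Lep, the satiety hormone leptin, was at 497 to 2249 CPM in 129 and 1214 to 2638 CPM in NOD and was not called (-0.42 ± 0.71), although the 4 against 4 libraries numbered 1 to 4 did differ (497 to 909 against 1214 to 1441 CPM, -0.89, adjusted p = 0.00481). Of 21 genes of cholesterol synthesis and uptake 2 were called, Hmgcs1 and the sterol transporter Stard4 (0.81 ± 0.16), while the list's median was -0.15. Among 27 genes of glutathione and antioxidant defence, Gsta4, a glutathione transferase for lipid aldehydes (-1.38 ± 0.33), Sod3, the extracellular superoxide dismutase (-0.99 ± 0.22), and Nnt, which makes mitochondrial NADPH (-0.74 ± 0.15), were called higher in NOD and the methylglyoxal detoxifier Glo1 higher in 129 (1.04 ± 0.09). These 4 did not overlap between the strains, and the Gsta4 call was lost without the Crisp1-rich libraries (-1.08).

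Several complement genes were lower in 129. The list holds the soluble cascade, its receptors and its inhibitors, and 8 of its 24 members were called higher in NOD and 0 in 129 (median -0.43, against 5.46% of all genes called higher in NOD). Its mean log2 CPM per library was 5.25, 5.58 and 5.75 in 129 and 5.76, 6.19 and 6.34 in NOD. By this measure the strains did not overlap, with NOD replicate 7 nearest to 129. The summed level of the list did overlap, at 4238 to 7207 CPM in 129 and 5447 to 8186 CPM in NOD. C6, a part of the membrane attack complex, was at 16.1, 19.7 and 34.9 CPM in 129 and 60, 96 and 122 CPM in NOD (-2.08 ± 0.46, adjusted p = 0.00108). Cd59a, which blocks that complex on the cell's own surface, was at 46, 53.9 and 59.4 CPM against 156, 172 and 210 CPM (-1.72 ± 0.17, adjusted p = 1.05e-11). C5ar1, the receptor for the C5a fragment, was at 9.91, 13.2 and 15.5 CPM against 29, 34.4 and 54.6 CPM (-1.59 ± 0.27, adjusted p = 1.14e-05).

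The classical pathway and the alternative pathway each had called members. C4a (-2.54 ± 0.36) and C4b (-1.08 ± 0.29), neighbours in the H2 complex that share reads, had 0.836 to 2.03 and 307 to 899 CPM in 129 and 4.01 to 11.7 and 1033 to 1842 CPM in NOD. Cfb, the factor B protease, was at 142, 174 and 241 CPM against 254, 308 and 351 CPM (-0.72 ± 0.21), and C1ra was called at -0.43 ± 0.13 with overlap, a call lost without NOD replicate 3 (-0.37). Of the 3 chains of C1q, C1qa was called (-0.63 ± 0.18, adjusted p = 0.0109), and C1qb (-0.09 ± 0.20) and C1qc (-0.15 ± 0.19) were not. C3, the hub of the cascade, was at 655 to 1748 CPM in 129 and 813 to 2044 CPM in NOD (-0.19 ± 0.34, adjusted p = 0.826). Within the classes 12 members were called higher in NOD in numbers 1 to 4 and 7 in numbers 5 to 9 (10.1% and 5.42% of all genes), and none higher in 129 in either.

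The few macrophage markers called went in the same direction. Of 23, 3 were called higher in NOD and 0 in 129 (median -0.47, against 5.46% of all genes called higher in NOD). They were C1qa, also counted among the complement genes, the membrane protein Ms4a7 (1.61, 3.07 and 5.17 CPM in 129 against 7.78, 11.4 and 18 CPM in NOD, -1.90 ± 0.37) and the folate receptor of resident macrophages Folr2 (16.7, 19.7 and 32.6 CPM against 27.1, 34.6 and 42.6 CPM, -0.66 ± 0.18). Within numbers 1 to 4 there were 12 such calls of 23 and within numbers 5 to 9 there were 2 (10.1% and 5.42% of all genes). The summed level of the list was 1381 to 2565 CPM in 129 and 1570 to 2701 CPM in NOD and overlapped. In bulk tissue, fewer cells of a type and less RNA per cell cannot be told apart. Of 24 cell division genes 14 were called higher in NOD within numbers 1 to 4 (10.1% of all genes) and 0 within numbers 5 to 9, with the interaction called for 0.

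Of the lymphoid markers, T and NK cell genes were low in both strains. The 30 T and NK cell genes summed to 54.4 to 97.3 CPM in 129 and 42.5 to 81 CPM in NOD. Of them 2 were called higher in NOD, near the 5.46% of all genes. These were Cd4, the helper T cell co-receptor (0.514, 1.22 and 1.41 CPM against 1.61, 3.4 and 5.59 CPM, -1.58 ± 0.35, no overlap), and Klrk1, the activating receptor NKG2D (-1.04 ± 0.31, lost without 129 replicate 4 at -0.92). Gata3, a factor of T cells and of epithelia, was called the other way (3.08 ± 0.72, and 3.88 without NOD replicate 6). It was at 15.7 to 44.6 CPM in the 3 Crisp1-rich libraries of 129 and 1.51 to 2.72 CPM in the other 4. In 129 replicates 6 and 9, which had the highest sums of the list (96.6 and 97.3 CPM), Gata3 alone gave 44.6 and 39 CPM. Of 11 lymph node markers tested, 3 were called higher in NOD (median -1.04, against 5.46% of all genes). Among them was the homing receptor gene Ccr7 (0.257, 0.637 and 0.742 CPM against 1.01, 1.25 and 2.97 CPM, -1.48 ± 0.31). Another was its ligand gene Ccl19 (-2.42 ± 0.78, adjusted p = 0.0327), whose call was lost in 7 of the 15 fits that each left out 1 library, with values from -2.40 to -1.98, and came to -3.14 without 129 replicate 7. The 23 B and plasma cell genes summed to 236 to 451 CPM in 129 and 288 to 718 CPM in NOD, highest in NOD replicates 5 and 8 (718 and 621 CPM). Of them 1 was called higher in NOD and 0 in 129 (5.46% and 5.02% of all genes). The part of lymph node tissue in these samples was not tested.

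Genes of MHC class I split in both directions. Of 27 tested, 8 were called higher in 129 and 4 higher in NOD (median 0.05, against 5.02% and 5.46% of all genes). H2-T22, a nonclassical class I gene, was at 87.1, 105 and 123 CPM in 129 and 3.38, 5.38 and 7.29 CPM in NOD (4.28 ± 0.13, adjusted p = 3.59e-33). H2-T10, its close relative, went the other way, with 12.6, 14.5 and 16.1 CPM against 42 to 66.7 CPM (-1.92 ± 0.15, adjusted p = 2.99e-15). Both share reads, as do H2-T23 (0.89 ± 0.18), H2-Q7 (1.39 ± 0.25) and the liver-type H2-Q10 (2.43 ± 0.55, and 3.18 without NOD replicate 8).

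The classical genes H2-K1 and H2-D1 share reads. H2-K1 was at 738, 835 and 1012 CPM in 129 and 203, 368 and 474 CPM in NOD (1.27 ± 0.17, adjusted p = 5.18e-08), whereas H2-D1 was at 1048 to 1573 CPM and 838 to 1518 CPM and not called (0.08 ± 0.13). Within NOD, H2-K1 was at 453 to 474 CPM in numbers 1 to 4 and 203 to 284 CPM in numbers 5 to 9, while in 129 the 2 classes overlapped (738 to 1012 and 790 to 837 CPM). The strain difference was thus 0.92 and 1.78 in the 2 classes (interaction adjusted p = 0.00873). B2m, the light chain of all class I molecules, showed the same order within NOD (1565 to 1621 and 871 to 1062 CPM), with no overall difference (0.00 ± 0.12) and an interaction adjusted p of 0.0463. The low-level gene H2-Q2 was called higher in NOD (-3.91 ± 0.77), at 2.27 to 4.02 and 0.812 to 2.5 CPM in the 2 classes of NOD and at most 0.375 CPM in 129. The CD1 gene Cd1d2, which presents lipids and shares reads, was called higher in 129 (0.721, 1.65 and 3.11 CPM against at most 0.315 CPM, 4.41 ± 0.54).

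The MHC class II genes called were higher in 129. Of 12 tested, 3 were called higher in 129 and 0 in NOD (median 0.47, against 5.02% and 5.46% of all genes). They were the peptide exchange genes H2-DMb1 (1.02 ± 0.29, shares reads) and H2-DMa (0.80 ± 0.23) and the β chain H2-Ab1 (131, 148 and 207 CPM against 50.4, 87.8 and 120 CPM, 0.81 ± 0.28, adjusted p = 0.047). The H2-Ab1 call was lost in 14 of the 15 fits that each left out 1 library, although the groups did not overlap. Without the Crisp1-rich libraries H2-DMb1 (0.96), H2-DMa (0.71) and H2-Ab1 (0.73) all lost their calls. The α chain H2-Aa (0.24 ± 0.26), H2-Eb1 (0.48 ± 0.30) and the invariant chain gene Cd74 (0.46 ± 0.26) were not called. With the number class as a covariate in the 15 libraries H2-Eb1 and Cd74 were called (0.49 and 0.46, adjusted p = 0.0201 and 0.0243), as they were with a replicate block in 12 libraries (adjusted p = 0.0392 and 0.0426). H2-Ea-ps, the entry for the E α chain gene that is broken in several H2 haplotypes, had 1 count in all of 129 and 14 in all of NOD, against strain means of up to 149 CPM elsewhere.

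Receptors of the natural killer gene complex on chromosome 6 differed gene by gene. Of 26 tested, 7 were called higher in NOD and 3 in 129 (median -0.59, against 5.46% and 5.02% of all genes). The mean log2 CPM of the list was -2.05 to -1.70 in 129 and -1.65 to -0.98 in NOD, without overlap. Its summed level did overlap, at 41.7 to 89.4 CPM in 129 and 53.9 to 90.9 CPM in NOD. Klra8 encodes the activating receptor Ly49H. It was at most 0.11 CPM in 129 and at 0.567, 1.42 and 2.43 CPM in NOD (adjusted p = 6.90e-08, with 9 counts in all of 129), and every other strain mean was at most 0.228 CPM. Klrb1b (-3.44 ± 0.63) and Klra9 (-2.37 ± 0.51) were called higher in NOD, and Klra4 (2.84 ± 0.50) and Klrb1a (2.42 ± 0.42) higher in 129, all with no overlap and none over 2.16 CPM in any library. Styk1, a kinase gene beside the cluster, was at 0.574, 1.16 and 2.25 CPM in 129 and at most 0.111 CPM in NOD, where 5 of 8 libraries had no count. It was called with 6 counts in all of NOD (adjusted p = 5.52e-12), and every other strain mean, from 0.729 to 1.51 CPM, was near 129.

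Of the inflammasome genes called, all but Il18 were lower in 129. Of 22 genes of the Ifi200 cluster and inflammasomes, 6 were called higher in NOD and 1 in 129 (median -0.33, against 5.46% and 5.02% of all genes). Their mean log2 CPM was 2.09 to 2.54 in 129 and 2.56 to 3.11 in NOD. Their summed level overlapped, at 195.3 to 272.9 CPM in 129 and 245.5 to 403.5 CPM in NOD. The cytokine gene Il18 was the 1 higher in 129 (0.59 ± 0.19, adjusted p = 0.0331), with overlap, and its call was lost in 6 of the 15 fits that each left out 1 library, with values from 0.50 to 0.57. Beside Nlrp1a those higher in NOD were the bacterial protein sensors Naip5 (1.91, 2.61 and 3.92 CPM against 5.29, 6.67 and 7.38 CPM, -1.34 ± 0.24, no overlap) and Naip2 (-1.13 ± 0.27), which share reads, their adaptor Nlrc4 (-0.76 ± 0.22) and the caspase genes Casp1 (-0.68 ± 0.20) and Casp4 (-0.91 ± 0.26). Without the Crisp1-rich libraries Casp1 (-0.52) and Casp4 (-0.79) lost their calls. Within numbers 5 to 9 Nlrc4 (-0.48) and Casp1 (-0.53) were not called. Of 35 genes of the interferon response 1 was called, the apoptosis factor Xaf1 (25.4, 28 and 37.3 CPM against 6.84, 11.3 and 14.8 CPM, 1.46 ± 0.22), and the list's median was -0.06. Of 22 genes of the unfolded protein and stress response none was called in edgeR over all libraries. The list's mean log2 CPM was nonetheless 5.66 to 5.95 in 129 and 6.002 to 6.095 in NOD. Its summed level overlapped, at 2428 to 3061 CPM in 129 and 2945 to 3705 CPM in NOD. In numbers 1 to 4, 11 of these 22 were called higher in NOD and 1 in 129, against 10.1% of all genes each way, and in numbers 5 to 9 the counts were 1 and 0.

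Genes known for alleles of NOD or 129 gave a mixed picture. Hc, the complement C5 gene that NOD lacks in working form, was low in both strains, at 0.67 ± 0.374 CPM in 129 (SD, n = 7) and 0.393 ± 0.309 CPM in NOD (SD, n = 8), and was not called (0.75 ± 1.06). Casp4, which is disrupted in several 129 lines, was at 2.9, 3.8 and 5.5 CPM in 129 and 4.98, 7.15 and 9.59 CPM in NOD (adjusted p = 0.0137), and the 6 other strain means were all above 129, from 6.79 to 19.2 CPM. The high-affinity Fc receptor Fcgr1 (-0.98 ± 0.45), Ifi202b (-0.55 ± 0.39), the phagosome metal transporter Slc11a1 (-0.45 ± 0.25), the T cell checkpoint Ctla4 (-0.14 ± 0.44), Mx1 (-0.19 ± 0.59) and Dysf (-0.20 ± 0.12) were not called. With the number class as a covariate in the 15 libraries, Fcgr1, Ifi202b, Slc11a1 and Dysf were called higher in NOD (-0.97, -0.58, -0.46 and -0.19, adjusted p = 0.00677, 0.00292, 0.0446 and 0.0299). Of 25 tested genes from NOD diabetes loci 2 were called over all libraries, 1 in each direction (median -0.32), where 10.5% of all genes were called. The one higher in NOD was Cd93, a phagocyte and endothelial receptor, at 140, 160 and 176 CPM in 129 and 229, 265 and 281 CPM in NOD (-0.70 ± 0.12, adjusted p = 1.63e-05). Within numbers 1 to 4, 7 of the 25 were called higher in NOD and 1 in 129 (10.1% of all genes each way). Within numbers 5 to 9 there was 1 call each way (5.42% of all genes higher in NOD and 6.13% higher in 129).

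Called genes were spread over all autosomes and unevenly so. The share of tested genes called was highest on chromosome 17 (15.8%, 139 of 880), which carries the H2 complex, and on chromosome 14 (14.4%, 91 of 633), and lowest among the autosomes and X on the X chromosome (6.31%) and chromosome 19 (6.43%). Of 687 windows of 2 Mb with at least 10 tested genes, 153 (22.3%) held no called gene, and the median share was 8.33%. The densest window, on chromosome 7 from 106000001 to 108000000 (GRCm38), had 8 of 11 genes called, among them Gvin1 and the cytochrome b5 reductase gene Cyb5r2 (1.12, 1.58 and 2.92 CPM against 0.024, 0.158 and 0.41 CPM, 3.40 ± 0.44).

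On chromosome 13 from 118000001 to 120000000, 9 of 14 were called, with Hmgcs1 and the kinase gene Nim1k (1.00 ± 0.15) higher in 129 and Nnt and the zinc finger gene Zfp131 (-0.87 ± 0.09) higher in NOD. The neighbouring windows of chromosome 14 from 4000001 to 8000000 had 7 of 11 and 8 of 13 called, mostly predicted genes. On chromosome 5 from 8000001 to 10000000, all 7 called genes of 13 were higher in 129, led by the drug efflux pump genes Abcb1b (31.1, 32.1 and 36.5 CPM against 7.87, 10.7 and 13.3 CPM, 1.60 ± 0.20) and Abcb1a (0.70 ± 0.15), which share reads. The window of chromosome 6 from 130000001 to 132000000, with 7 of 13 called, holds Styk1 and the Klra genes.

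**Figure D5:**
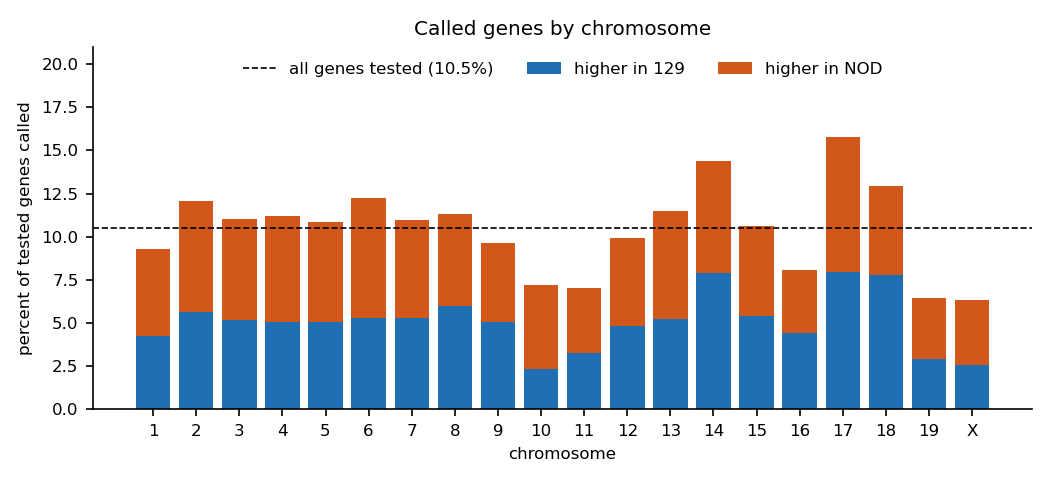
The percent of tested genes called on each autosome and the X chromosome, divided into genes higher in 129 (blue) and higher in NOD (orange), with the share over all genes tested (10.5%) as a dashed line. Chromosome 17 reaches 15.8% and the X chromosome 6.31%.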

How the data were processed

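RNA-seq libraries of adipose tissue from 129 (n = 7) and NOD (n = 8) were compared. Libraries were made from poly(A) RNA, per the labels' protocols. The authors deposited estimated counts per gene with no scaling, of which 21.1% are not whole numbers. The authors also deposited variance-stabilised values on a log2 scale. DESeq2 and the mouse build GRCm38 are named per the submitters' processing notes, and the aligner and counter are not given in the sources used here. A gene with values that are not whole in over 50% of libraries is taken to share reads with similar genes (4105 of those tested).

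Estimated counts were rounded, scaled by TMM and tested with edgeR 4.0.16 (R 4.3.3) by quasi-likelihood, with 1 mean per strain over all 61 libraries so that all strains share the estimate of spread. Of 21169 genes, 2566 with low counts were set aside by edgeR's filter. Calls use a Benjamini-Hochberg adjusted p under 0.05. Nothing in the labels states that the libraries are from separate mice, so p-values measure the spread between these libraries. Alternatives used DESeq2 1.42.0, limma 3.58.1 on the deposited log2 values, other filters and scalings, and fewer libraries. In simulated counts for the 18603 genes tested, 80% of 100 genes given a log2 change of 1 and 42% of 100 given 0.5 were recovered, and 1.61% of calls were false. The changed genes were drawn from those with a mean over 1 CPM. Simulated libraries varied independently around 1 mean per strain, without number classes or Crisp1-rich libraries, so these rates need not hold for the real libraries.

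Named genes were the 14 with the largest non-overlapping difference in each direction at a mean of at least 5 CPM in the higher strain, the 6 largest in each direction at a mean of at least 200 CPM, the leading called members of each gene list and dense window, genes near 0 in 1 strain, and a set of genes with known alleles. The text gives a selection of these, and 1 gene that the rule takes is not reported here. Genes given beside them as context (such as Adipoq, Lep, Fasn and uncalled members of a list) were chosen after their values were seen. The members and gene lists were chosen with earlier results of these data known. The classes of library numbers and the limit of 100 CPM of Crisp1 were chosen after seeing the data. Coding sequences came from GENCODE M21.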

Additional observations from a re-analysis of the deposited data

Results flagged for a closer look

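The strain difference differed between libraries numbered 1 to 4 and those numbered 5 to 9, by edgeR's test of the interaction, in 13 of the genes described. As the log2 fold change (129 minus NOD) in the first class minus that in the second, the values were 2.39 for Cyp2e1, 1.33 for mt-Nd1, 1.43 for Plin5, 3.002 for Cpt1b and 1.81 for Ppara. For class I genes they were -0.86 for H2-K1, -4.54 for H2-Q2, -0.53 for H2-T10, -0.73 for H2-T23 and -0.54 for B2m. For the muscle genes they were -3.54 for Myh11, -6.56 for Ckm and -4.58 for Tnnc2, the 3 genes high in the Crisp1-rich libraries of 129.

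A single library lay far from the others of its strain in 34 of 340 groups of values examined. The cutoff is one that about 1 in 20 groups of independent, normally distributed values would pass. The groups here share libraries and genes, and some have most libraries at 0, so their share cannot be compared with that rate. NOD replicate 6 held 13 of the 34. It had the highest NOD values of Crisp1 (1180 CPM), Pate2 (69.5 CPM), Wfdc6a (25.9 CPM), Akr1b7 (6.81 CPM), Gata3 (7.25 CPM) and Ucp2 (447 CPM). It had the lowest of Adipoq (1010 CPM), Thbs1 (718 CPM), Gsta4 (30.6 CPM), Abcb1b (7.87 CPM) and Abcb1a (11.2 CPM). Its mean log2 CPM over the mature adipocyte genes was 9.475, against 10.057 or more in the other NOD libraries, and over the 1 tested male genital tract gene it was 10.206.

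In 129, replicate 3 stood apart in Hba-a2 (2520 CPM), Hbb-bs (2220 CPM), Hbb-bt (211 CPM) and the mean of the blood genes (5.645 on the log2 scale). Replicate 9 was highest in Fcgr1 (4.76 CPM), Hist2h2aa2 (0.191 CPM), Trim5 (0.168 CPM), H2-Ea-ps (0.0239 CPM), the mean of the cell division genes (2.355) and that of the NOD diabetes locus candidates (2.357). Replicate 7 was lowest in Atp5g2 (3.51 CPM) and highest in C4a (2.03 CPM), replicate 6 was lowest in Cd4 (0.514 CPM), and replicate 1 was highest in Nlrp1a (0.203 CPM).

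In NOD, replicate 7 was lowest in H2-Ab1 (50.4 CPM), H2-Aa (105 CPM) and the mean of the complement genes (5.763) and highest in Hist2h2aa2 (140 CPM). Replicate 8 was highest in H2-Q10 (10.2 CPM) and H2-Ea-ps (0.288 CPM), and replicate 2 in Styk1 (0.111 CPM).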

How the results depend on the processing

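Against 1948 calls (933 higher in 129, 1015 in NOD), DESeq2 gave 2290, limma on the deposited log2 values 1847, and leaving out 1 library 1675 to 1865 (818 to 901 genes higher in 129 and 847 to 979 genes higher in NOD). Requiring a doubling or halving left 940 (445 and 495), and a filter at a mean of 5 CPM, which tests fewer genes, left 1076 (549 and 527). Fitting only the 15 libraries gave 3163 (1513 and 1650), libraries numbered 1 to 4 gave 3762 (1876 and 1886), and the number class as a covariate gave 3903 (1809 and 2094). The cause of these higher counts was not tested. Without the 4 Crisp1-rich libraries 1398 genes were called, and without genes that share reads 1413. Of 104 called genes that are described, 58 kept their call and direction in all 31 settings that tested them and 87 in all 15 that left out 1 library. Without the Crisp1-rich libraries 80 of the 104 kept both. Of 25 described genes that were not called, 7 were called with the number class as a covariate and 6 with the replicate block in 12 libraries.

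Same-numbered libraries of the strains correlated in their deviations at -0.06 to 0.56, not all above 0.1, and 2 of 6 correlated best with their own number, so the numbers were not taken as pairs. A replicate block gave 1777 calls, and 3016 in the 12 libraries with shared numbers (1338 higher in 129 and 1678 in NOD).

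Directions turned in 7 genes. Pate2, between -6.78 and 0.43 over the fits that left out 1 library, came to 0.43 without NOD replicate 6, 0.34 in DESeq2, 0.78 in numbers 1 to 4 and 0.75 without the Crisp1-rich libraries. In numbers 1 to 4 and without the Crisp1-rich libraries Akr1b7 came to -1.26 and -0.81, Myh11 to -0.61 and -0.79, and Fads2 to -0.041 and -0.15. Ckm came to -0.10 in numbers 1 to 4. In numbers 5 to 9 Mup17 came to -2.84 and Cpt1b to -0.028. Genes under about 1 CPM rest on few counts, and a library at 0 there does not show absence.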

Other observations

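Cytokine, matrix and stromal genes were called over all libraries as follows, where 5.02% of all genes tested were called higher in 129 and 5.46% higher in NOD. Of 28 cytokine and chemokine genes 2 were called higher in NOD and 1 in 129 (median log2 fold change -0.72), and of 31 extracellular matrix genes 2 were called, both higher in NOD (median -0.20). Of 18 adipose progenitor genes 1 was called higher in NOD, and of 22 endothelial and mural genes 2 were called higher in 129. Among these 2 was Myh11, at 1.96 over all libraries and -0.79 without the Crisp1-rich libraries. None of 15 mesothelial or 15 glucocorticoid response genes was called in edgeR over all libraries. Within libraries numbered 1 to 4, 9 of the matrix genes and 7 of the progenitor genes were called higher in NOD and 0 higher in 129, where 10.1% of all genes tested were called higher in NOD.

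Of 11 Ly6 genes, which encode small surface proteins, 2 were called higher in 129 and 1 in NOD (5.02% and 5.46% of all genes). The list's mean log2 CPM was 2.17 to 2.53 in 129 and 1.52 to 2.00 in NOD, without overlap. Its summed level did overlap, at 497.1 to 596.3 CPM in 129 and 449.9 to 618.8 CPM in NOD. Blood genes had 3 of 8 called higher in NOD, against 5.46% of all genes. Among these 3 were Hba-a1, described above with its near-identical pair, and Hbb-bt. The Hbb-bt call was lost in numbers 1 to 4 (-1.26, adjusted p = 0.0757 in edgeR). Of 19 liver genes the transferrin gene Trf alone was called, higher in NOD, near the 5.46% of all genes. The liver list's mean log2 CPM overlapped, at -1.06 to 2.63 in 129 and -0.80 to 3.78 in NOD.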
